A study of Homo sapiens with 24 samples.

Results

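Histone lysine demethylases remove methyl groups from lysines of histone tails and so change how chromatin is read. Transcripts of 10 of their genes were followed here: KDM1A, KDM2A, KDM2B, KDM3A, KDM3B, KDM4A, KDM4B, KDM5A, KDM5B and KDM6B. KDM1A is a flavin-dependent amine oxidase. The others carry a JmjC domain and use iron and alpha-ketoglutarate, as does ALKBH5, the enzyme knocked out in this study, which takes the methyl group off N6-methyladenosine (m6A) in RNA. m6A is put on transcripts by a methyltransferase complex in the nucleus, mostly in long exons and around stop codons, and is read by proteins that act on the stability and translation of the transcript.

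The data were lists of m6A peaks, stretches of exon enriched in reads after immunoprecipitation (IP) with an m6A antibody over the input RNA. All cells derived from the MEL1 INSGFP/W line of human embryonic stem cells, in which the insulin promoter drives a GFP reporter. In batch 1, the hPSC (undifferentiated), DE (definitive endoderm), PP (pancreatic progenitor) and hILO (islet-like organoid) stages were profiled from mRNA with an antibody from SYSY. In batch 2, wild-type (WT) PP and PP of an ALKBH5 knockout (A5-KO) were profiled from total RNA with an antibody from Millipore, and only the input was depleted of ribosomal RNA. The knockout was made with CRISPR-Cpf1 against the first exon of ALKBH5, and the hPSC were kept on CF1 feeder cells. Each population had 2 IP and 2 input libraries, which the authors joined into 1 list, so there is no value per library, no replicate error and no test between populations. Batch, antibody and RNA input cannot be told apart, hence differences between populations were taken among the stages and, separately, within batch 2. Where stages and batch 2 are set side by side, the values are a description only. The study made 2 knockout lines, A5-KO and A5-KO2, and the labels carry the name of the first.

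A peak was a member when its gene field held the identifier of 1 of the 10 genes. This gave 287 of the 228472 peaks, and all 10 genes had at least 1 peak in all 6 lists. Among protein-coding genes a peak in all 6 lists was found for 37.8%, and for 50.8% of those with an isoform at least as long as the shortest of the 10 (3099 nt). The 10 genes were chosen with earlier results of these data known, so their count is a description and no trait of the family is read from it. In the single lists the share of protein-coding genes with a peak was 60.3% (hPSC), 57.1% (DE), 52.2% (PP), 57.8% (hILO), 62.9% (WT PP) and 69.8% (A5-KO PP). Stage markers followed their labels in part. POU5F1 and NANOG had peaks in hPSC and DE alone, SOX17 in DE, WT PP and A5-KO PP, PDX1 and NKX6-1 in the 3 PP lists and hILO, and INS, GCG and SST in hILO alone. Other markers were less specific: CHGA (hILO) and CXCR4 (DE) had peaks in all 6 lists, FOXA2 (DE) in all but hPSC, and SOX9 (PP) in all but DE, with 2 in hPSC. ALKBH5 itself had 3, 3, 3, 3, 4 and 5 peaks in the lists in the order above, and none of their reads could be tied to a position (below), so the knockout was not checked here. Enrichments are the deposited log2 values, which the authors corrected for GC content and library size, and so are not the plain ratio of the reads given beside them.

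The columns of reads did not always belong to the peak in whose row they stood. Longer peaks should hold more IP reads. With peaks in the order of their names, the rank correlation of exonic length and IP reads had a median of 0.52 to 0.61 in some stretches of each list. In the others it had a median of −0.062 to −0.027. The stretches were told apart by this same correlation, so a gap between these medians follows from the rule and is no separate support for it. Tested at every 100th peak, the reads were in register with the coordinates at 39.2% of places (hPSC), 36.1% (DE), 12.0% (PP), 10.8% (hILO), 8.99% (WT PP) and 7.78% (A5-KO PP). Neighbouring peaks of 1 gene had input densities with a rank correlation of 0.49 to 0.60 in register and 0.19 to 0.36 out of it, a description across peaks, which are not replicates. On the strand given, 98.99% to 99.22% of the peaks of a list lay on an exon of a gene in their gene field. Results on position therefore use all peaks, and reads or enrichments are given only for peaks in register. Of the 287 peaks 89 were, in 23 of the 60 combinations of gene and list, and KDM2A, KDM2B and KDM5A had none.

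The sites at which the lists met are shown by 1 window of 25 bases for each gene. Its motif lies in the widest stretch covered by the most lists (the window of KDM4B begins 1 base before that stretch), and the window is centred on the adenosine of a GGAC core, a well-known form of the m6A consensus, in capitals. KDM3A had no GGAC in its stretch, so a site of the wider consensus DRACH is in capitals there (D stands for any base but C, R for A or G, and H for any base but G). In the KDM4B window the GGAC is followed by G, so it is no DRACH match. Sequences are from GRCh38, 5′ to 3′ on the transcript strand. A match does not show which base was methylated.
KDM1A: gcaagcaggaGGACttcaagacgac
KDM2A: ctccccgaaaGGACaggcaagtgca
KDM2B: actgctttctGGACcatttctaagg
KDM3A: gaagcacctaGAACAtgcaccttcc
KDM3B: ggccggcctcGGACtgcccccctga
KDM4A: tatgctggctGGACtggctgccttg
KDM4B: ggagccagcgGGACgccgcacgcgg
KDM5A: aaaaggtgctGGACatcccctcaaa
KDM5B: catttttccaGGACtctttgaagaa
KDM6B: gggcctgtaaGGACagtgtgggtcg
The KDM1A window is chr1:23044428-23044452 (+, exon 3, CDS), that of KDM2A chr11:67231812-67231836 (+, exon 12, CDS) and that of KDM2B chr12:121430053-121430077 (−, exon 23, 3′UTR). KDM3A lies at chr2:86466675-86466699 (+, exon 11, CDS) and KDM3B at chr5:138392234-138392258 (+, exon 8, CDS). KDM4A is chr1:43704653-43704677 (+, exon 22, 3′UTR) and KDM4B chr19:5151654-5151678 (+, exon 24, 3′UTR). KDM5A is chr12:292844-292868 (−, exon 27, CDS), KDM5B chr1:202728874-202728898 (−, exon 28, 3′UTR) and KDM6B chr17:7849251-7849275 (+, exon 11, CDS). The stretch was covered in all 6 lists for 7 genes, in 5 lists for KDM4A and KDM6B and in 4 lists for KDM4B.

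The 10 genes carried 49 (hPSC), 37 (DE), 42 (PP), 48 (hILO), 56 (WT PP) and 55 (A5-KO PP) peaks. In the same order, the whole lists held 36659, 32680, 29083, 31519, 43312 and 55219. KDM5A had the most in all, 10, 7, 9, 7, 12 and 11, and KDM1A the fewest, 3, 2, 2, 4, 3 and 2. The median per gene lay between 3 in DE and 5 in hILO and A5-KO PP, against 3 in each list for all protein-coding genes with a peak and an isoform of at least the length of KDM1A. Fewer cells of a type, less RNA per cell and less methylation cannot be told apart in these lists, since a peak also needs enough reads, and the depth of the libraries is unknown here.

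**Figure D1:**
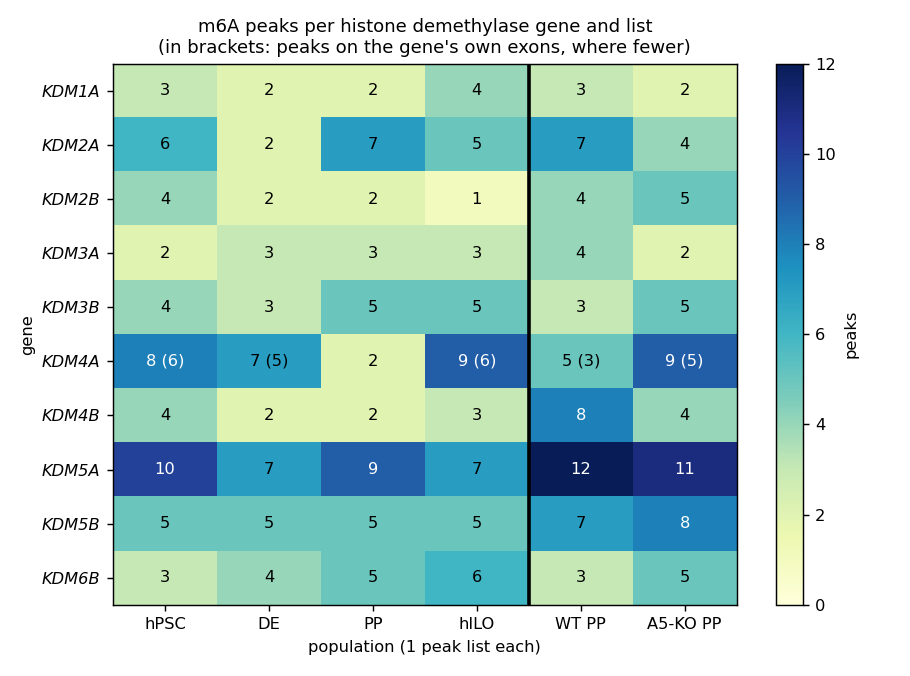
Number of m6A peaks for each gene (rows) and list (columns), coloured by the number; the line divides the batches. KDM5A has 7 to 12 peaks, the most of any gene in each list but DE, where KDM4A has as many, and hILO, where KDM4A has 9, and KDM4A is the one gene with peaks that lie on no exon of its own.

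After merging overlapping peaks of all lists, the 10 genes had 75 sites on their own exons. Of these 17 (22.7%) were found in all 6 lists, 11 of them in the CDS and 6 in the 3′UTR, on 7 genes. Among 28009 sites made the same way on the 4510 protein-coding genes of at least 3099 nt with a peak in all 6 lists, 19.9% were. A further 27 sites (36.0%, against 39.7%) were found in 1 list each, of which 13 were stage sites (6 of hILO, 4 of hPSC, 3 of PP, none of DE) and 14 of batch 2 (8 of WT PP, 6 of A5-KO PP). Both lists of batch 2 and no stage held 9 sites (12.0%, against 6.6%), and all 4 stages and neither list of batch 2 held 3 (4.0%, against 2.23%). With so few sites, nothing particular to the 10 genes is read from these shares. On the longest coding isoforms, 156 of 252 placed peaks had their midpoint in the CDS (61.9%), 87 in the 3′UTR (34.5%) and 9 in the 5′UTR (3.57%), against 57.0%, 36.9% and 6.15% of all peaks placed on coding genes. The isoforms are themselves 66.3% CDS and 29.2% 3′UTR. Within 200 nt of the stop codon lay 20 of the 252 midpoints (7.94%), against 20.3% of the midpoints of all peaks on coding genes and 16.5% of those on isoforms of at least 3099 nt. The contrast depended on the distance: within 400 nt lay 21.8%, against 33.2% and 27.1%. In 5 of the 10 genes (KDM1A, KDM3A, KDM3B, KDM4A and KDM6B) no midpoint lay within 200 nt. On KDM4A, the peaks that run beyond the gene (below) span the stop codon. Their midpoints rest on inner parts known from the ends alone.

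The consensus was denser in the peaks than beside them. DRACH occurred 20.4 times per kb of covered isoform and 16.7 times per kb of the rest of the same isoforms over all lists together, a ratio of 1.22 (95% interval 1.08 to 1.38, counting error only), and 14.9 times per kb on the opposite strand of the peaks. GGAC occurred 5.14 against 3.85 times per kb. By list, the GGAC ratio was 1.81 (hPSC), 2.14 (DE), 1.87 (PP), 1.60 (hILO), 1.34 (WT PP) and 1.48 (A5-KO PP). At least 1 GGAC was found in 68.3% of the 287 peaks and in 55.0% of all peaks, which differ in length. DRACH was found in 91.3% and 90.8%.

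KDM1A demethylates mono- and dimethylated lysine 4 of histone H3 as part of the CoREST complex. It had 2 sites in all 6 lists. The first began in exon 1 or 2 and ended in exon 4, in the CDS, and its common part of 175 nt is chr1:23030539-23050405. The other was the end of the 3′UTR, from 23083500 to 23083689. A further site across exons 12 to 14 was found in hPSC and hILO, 1 across exons 8 to 10 in hILO, and 1 in exon 1 in WT PP. In hPSC the log2 enrichment, IP over input, was 1.35 in the first site, with 1494 input and 9729 IP reads, and 1.45 at the transcript end. In DE the values were 1.36 and 1.52, and in PP 1.5 and 1.66. The steps between them were 0.01 ± 0.08 and 0.06 ± 0.09 from hPSC to DE and 0.14 ± 0.08 and 0.15 ± 0.10 from DE to PP (difference ± counting error), none of them near the limit of 1 on the log2 scale used here. The reads of hILO, WT PP and A5-KO PP were not in register for KDM1A.

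KDM2A and KDM2B act on lysine 36 of histone H3, and both bind unmethylated CpG islands through a zinc finger. KDM2A had a CDS site in exon 12 in all 6 lists, with a common stretch of 175 nt from 67231733 to 67231907. A site far down the 3′UTR, from 67256927 to 67257651, was also in all 6. The site over the stop codon (67254977 to 67255226) was in 5 lists and missing in DE. The exon 17 site from 67250597 was in hPSC, PP, hILO and WT PP, and was missing in DE and A5-KO PP. DE thus had 2 KDM2A peaks against 4 to 7 in the other lists.

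KDM2B recruits the variant Polycomb complex PRC1.1 to CpG islands. Its last exon held 1 site in all 6 lists, from 121429796 to 121430370, mostly in the 3′UTR, with 475 nt common to all. This was the one KDM2B peak in hILO. A CDS site in exons 11 and 12 was present in hPSC, DE, WT PP and A5-KO PP and missing in PP and hILO. A CDS site in exons 19 and 20 was present in the 3 PP lists, and was missing in DE and hILO, while hPSC had a peak in another part of exon 19. The peak in the first exon (121580892 to 121581016, 5′UTR) was in hPSC alone.

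**Figure D2:**
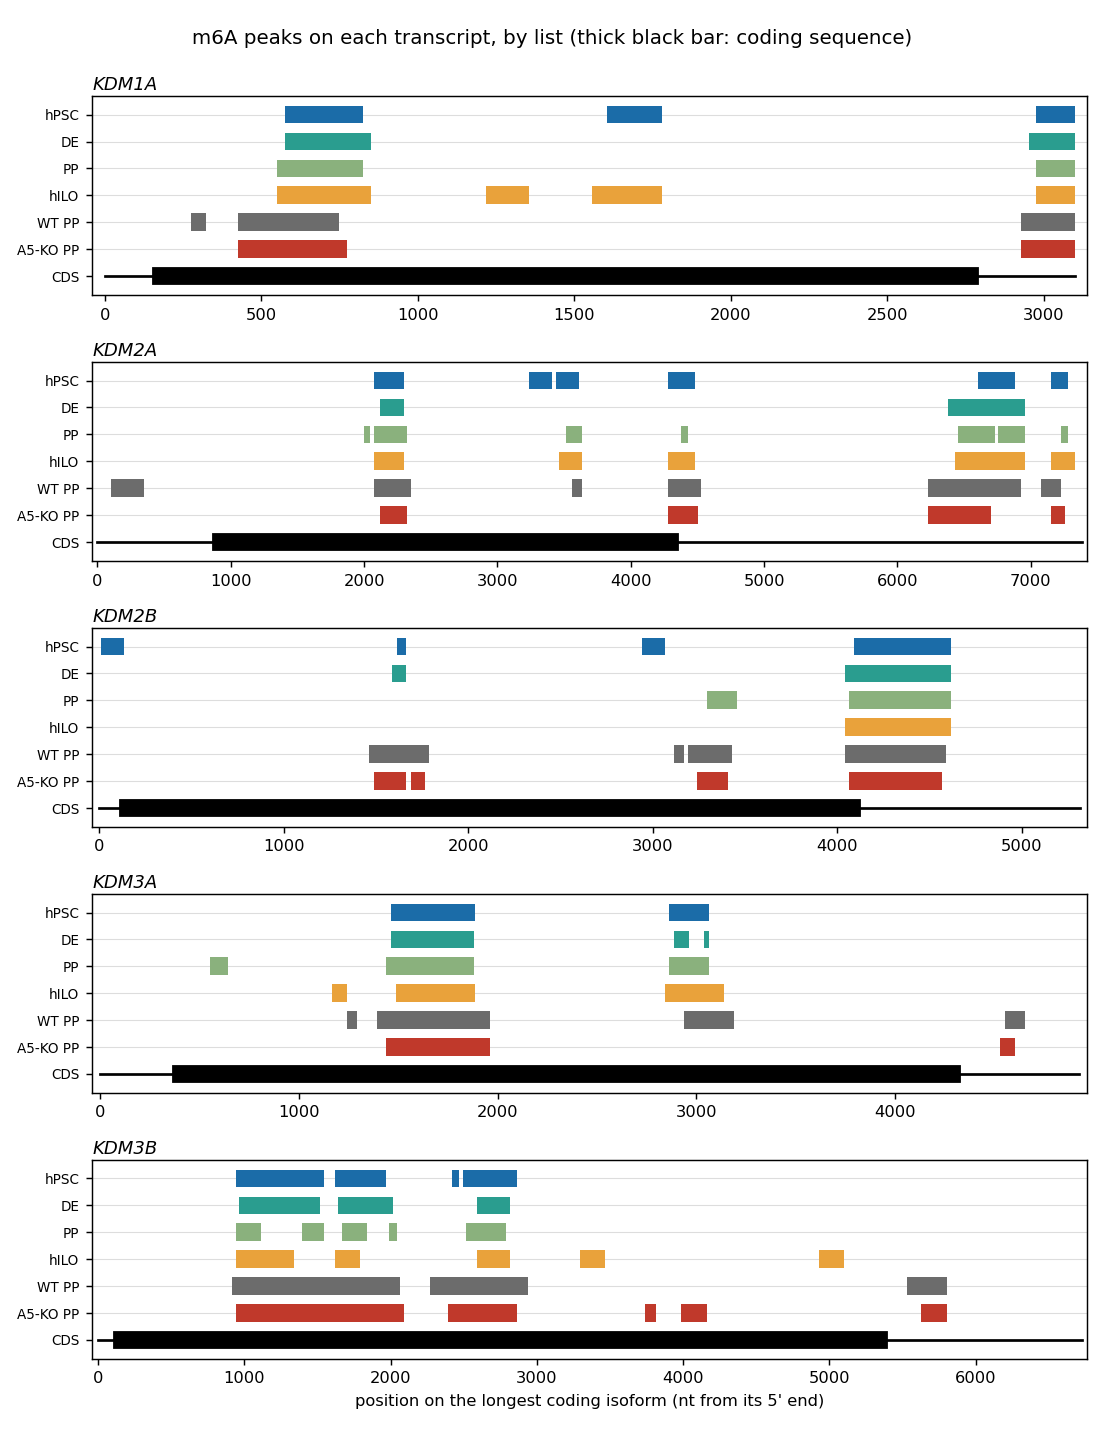
Peaks of KDM1A, KDM2A, KDM2B, KDM3A and KDM3B along the longest coding isoform (nt from its 5′ end), 1 row per list, with the CDS as a thick black bar. Most boxes lie in places that several lists share. DE has 2 boxes on KDM2A, and hILO has 1 on KDM2B.

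KDM3A and KDM3B remove mono- and dimethylation of lysine 9 of histone H3. KDM3A had its widest common stretch, 400 nt, in exon 11 of the CDS, where every list had 1 peak of 425 to 600 nt. A site in exons 17 to 19 was found in 5 lists and was missing in A5-KO PP. The last exon held a 3′UTR peak in WT PP and A5-KO PP and in no stage. KDM3A was the one gene of the 10 with reads in register in both lists of batch 2. In the exon 11 peak, WT PP had 761 input and 2888 IP reads and A5-KO PP 609 and 2331. The log2 enrichments of 4.93 and 5.04 differed by 0.11 ± 0.09. In the 3′UTR peak the values were 2.84 and 4.20 at 23 and 8 input reads. That difference of 1.36 ± 0.65 was past the limit of 1, as were 16.6% of shared pairs in register in that direction, with 18.6% in the other. The exon 18 and 19 peak of WT PP, missing in A5-KO PP, had 205 input and 222 IP reads. Among the stages, the exon 11 peak had 122 input and 1631 IP reads in hPSC and 248 and 896 in PP.

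KDM3B was covered more widely. Its sites from 138386048 to 138391613 (exons 7 and 8) and from 138391789 to 138397902 (exons 8 and 9) were in all 6 lists, and exon 8 alone is 1249 nt long. In WT PP and A5-KO PP the first was 1 peak of 1150 nt, where hPSC, DE and hILO had 2 shorter peaks and PP 4. A 3′UTR site (138435832 to 138436106) was in both lists of batch 2 and in no stage. hILO had further CDS peaks across exons 11 to 13 and in exons 21 and 22, and A5-KO PP in exon 14 and in exons 15 and 16. All 4 stages were in register. The log2 enrichments were 1.46 to 2.37 in hPSC, 1.54 to 1.91 in DE, 1.13 to 1.55 in PP and 0.72 to 1.62 in hILO. From hPSC to DE the peak across exons 8 and 9 moved by −0.52 ± 0.13 and the others by −0.02 and −0.07. From DE to PP the 4 pairs, of which 2 have the same DE peak, moved by −0.45 to −0.36 with errors of 0.12 to 0.17. From PP to hILO the steps were −0.12 ± 0.12 and 0.28 ± 0.18.

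KDM4A removes di- and trimethylation of lysines 9 and 36 of histone H3. Each of its 40 peaks also named ENSG00000284989, a gene model on the same strand that joins KDM4A to ST3GAL3, and 23 named ST3GAL3 as well. Of the 40, 13 lay on no KDM4A exon and are left out of the sites: 2 each in hPSC, DE and WT PP, 3 in hILO and 4 in A5-KO PP. The 3′UTR stretch from 43704526 to 43704825 (300 nt) was covered in 5 lists and missing in PP. There PP had 2 peaks in all, both at the 5′ end of the gene. The 5′ end (43650174 to 43653282) was covered in the 4 stages and in neither list of batch 2, whereas a peak in exons 15 to 17 was found in batch 2 and in no stage. In hPSC, hILO, WT PP and A5-KO PP a peak ran from the last KDM4A exons to 43736291 or 43736316, beyond the gene. Its inner part is known from its ends alone, so the 31.9% to 38.6% of the isoform covered in those lists is an upper limit, against 15.0% in DE and 3.90% in PP. With reads in register, the 3′UTR peak had a log2 enrichment of 1.90 in hPSC (744 input and 8103 IP reads) and 1.89 in DE (748 and 2209), a difference of −0.01 ± 0.08. The peak in exons 9 and 10 had 1.45 and 1.52.

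KDM4B acts on the same lysines. It had the lowest cover of its longest coding isoform in every list but PP, where KDM4A was lower, and WT PP, where KDM6B was, with 10.5% (hPSC), 2.19% (DE), 4.38% (PP), 8.89% (hILO), 5.26% (WT PP) and none in A5-KO PP. The site in the 3′UTR just after the stop codon (5151530 to 5151879) was found in all lists but A5-KO PP. All 4 peaks of A5-KO PP, and 7 of the 8 of WT PP, lay off that isoform, on exons of other KDM4B transcripts. The largest group of these, between 5077979 and 5080974, is on 2 annotated transcripts without a defined CDS, 1 of them a model awaiting experimental support. No stage had a peak there. In register were hPSC, with log2 enrichments of 1.02 to 1.52, DE (1.54 and 1.59), PP (0.98 and 1.91) and hILO (0.81 to 1.59). The 3′UTR peak went from 1.54 in DE to 1.91 in PP (0.37 ± 0.30) and 1.59 in hILO (−0.32 ± 0.22), at 57, 69 and 208 input reads.

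KDM5A and KDM5B remove di- and trimethylation of lysine 4 of histone H3. KDM5A has the longest isoform, 10701 nt, with a 3′UTR of 5402 nt. Of its 10 sites 4 were in all 6 lists. They were a site across exons 22 to 24, a site across exons 26 to 28 that runs over the stop codon, and 2 in the 3′UTR, of which the first had no base covered in more than 4 lists and the last (280332 to 280731) lies near the transcript end. The widest stretch common to all lists was 425 exonic nt that include most of exon 27 (286145 to 293120). The first exon had a peak in hPSC, WT PP and A5-KO PP. In the middle of the 3′UTR, from about 7727 to 9951 nt of the isoform, peaks were found in batch 2 and in no stage. Cover of the isoform was 15.8%, 14.1%, 14.2% and 16.5% in the 4 stages and 31.0% and 32.2% in WT PP and A5-KO PP.

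KDM5B had 8 sites, of which 3 were in 1 list each and 5, the most of the 10 genes, in all 6 lists. These 5 were in exons 7 to 9, 24, 25, 27 and 28, and each of the 4 stages had 5 peaks, 1 for each site. The last of them begins at the start of exon 28, before the stop codon, and 325 nt of it (202728745 to 202729069) were common to all lists. WT PP had 2 further peaks and A5-KO PP 3. In the exon 28 peak the log2 enrichment was 2.22 in hPSC, 1.83 in DE and 1.97 in PP, at 563, 1135 and 661 input reads. The steps were −0.38 ± 0.08 from hPSC to DE and 0.13 ± 0.08 from DE to PP. The 3 CDS peaks in exons 24, 25 and 27 moved by −0.12 to 0.09 from hPSC to DE, with errors of 0.08 to 0.16. From DE to PP they moved by −0.47 ± 0.14, −0.64 ± 0.155 and −0.50 ± 0.08.

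KDM6B removes di- and trimethylation of lysine 27 of histone H3, the Polycomb mark. Its peaks gathered in exon 11, which is 2183 nt long. There, 3 sites (7847930 to 7848204, 7848505 to 7848929 and 7849030 to 7849454) were each found in all 4 stages. A5-KO PP had the last 2 of these, and WT PP had none. In WT PP and A5-KO PP a peak of 150 nt, from 7847755 to 7847904, stood beside the first. The WT PP peaks covered 4.47% of the isoform and those of A5-KO PP 15.3%. A 3′UTR site (7854314 to 7854488) was found in PP, hILO, WT PP and A5-KO PP, and was missing in hPSC and DE. The largest peak, from 7849030, had a log2 enrichment of 2.59 in hPSC, at 86 input reads, and 2.20 in DE, at 575, a difference of −0.39 ± 0.17. The peak that holds 7848705 to 7848854 moved from 2.30 to 1.34 (−0.96 ± 0.30, 28 and 196 input reads), the largest step of the 33 stage pairs in register, and the peak at 7847955 by −0.49 ± 0.31. In hILO the log2 enrichments of 6 peaks were 0.87 to 1.81.

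**Figure D3:**
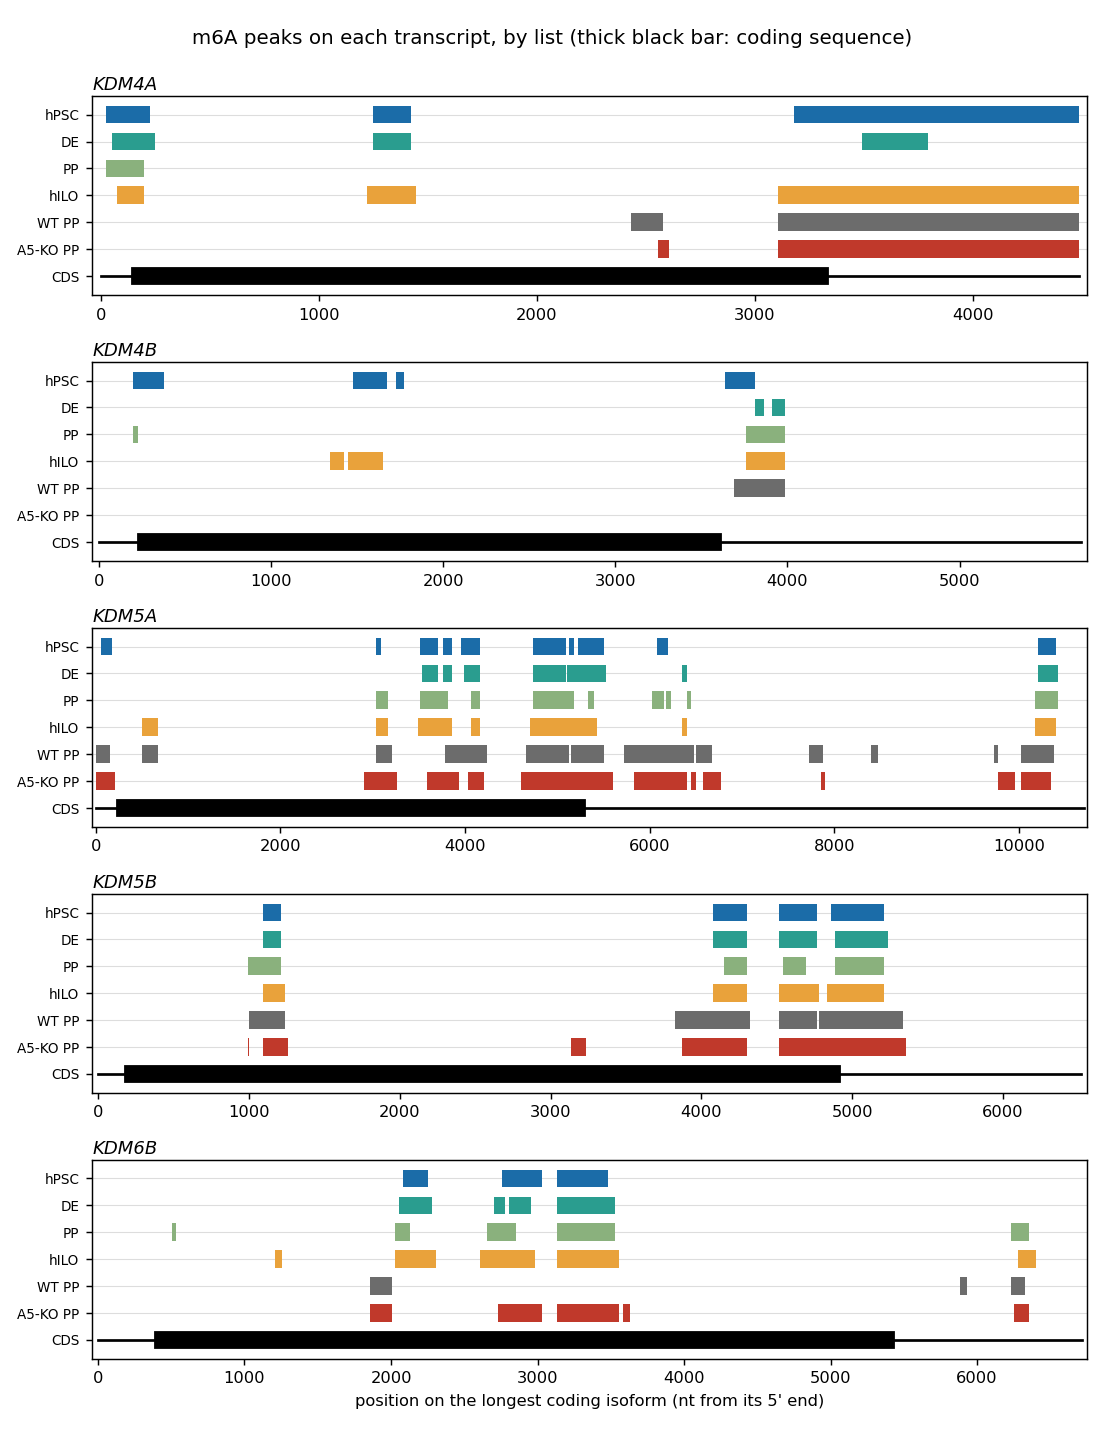
Peaks of KDM4A, KDM4B, KDM5A, KDM5B and KDM6B along the longest coding isoform (nt from its 5′ end), drawn as in the map of the other genes. The A5-KO PP row of KDM4B is empty, KDM5B has the same 5 places in every list, and the exon 11 boxes of KDM6B from 2606 nt on are missing in WT PP.

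The peaks were then compared between neighbouring stages, where a peak counted as shared when over 50% of its exonic length was covered in the other list. Of the DE peaks 31 of 37 were shared with hPSC (83.8%, 95% Wilson interval 68.9% to 92.3%), against 64.7% of all DE peaks. Of the PP peaks 26 of 42 were shared with DE (61.9%, 46.8% to 75%; all peaks 57.0%), and of the hILO peaks 26 of 48 with PP (54.2%, 40.3% to 67.4%; all peaks 45.6%). In A5-KO PP, 37 of 55 were shared with WT PP (67.3%, 54.1% to 78.2%), against 46.8% of all its peaks, and in WT PP 35 of 56 with A5-KO PP, against 50.0%. Without the KDM4A peaks off its own exons the counts were 30 of 35, 26 of 42, 26 of 45, 35 of 51 and 34 of 54. Peaks of 1 gene are not independent, so these intervals cover counting error only. All DE peaks of KDM1A, KDM2B, KDM3A, KDM3B and KDM5B were shared with hPSC, while neither of the 2 KDM4B peaks in DE was covered by over 50% in hPSC. In the hILO list, 6 of 9 KDM4A peaks were not shared with PP. All A5-KO PP peaks of KDM1A, KDM2A, KDM3A and KDM4B were shared with WT PP, while 6 of 11 on KDM5A and 3 of 5 on KDM6B were not. In WT PP 4 of 7 on KDM2A and 3 of 4 on KDM3A were not shared with A5-KO PP. Between the batches, 17 of 56 WT PP peaks were shared with PP (30.4%), against 22.4% of all WT PP peaks. Counted from PP, 31 of 42 were shared with WT PP (73.8%), against 57.9% of all PP peaks.

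**Figure D4:**
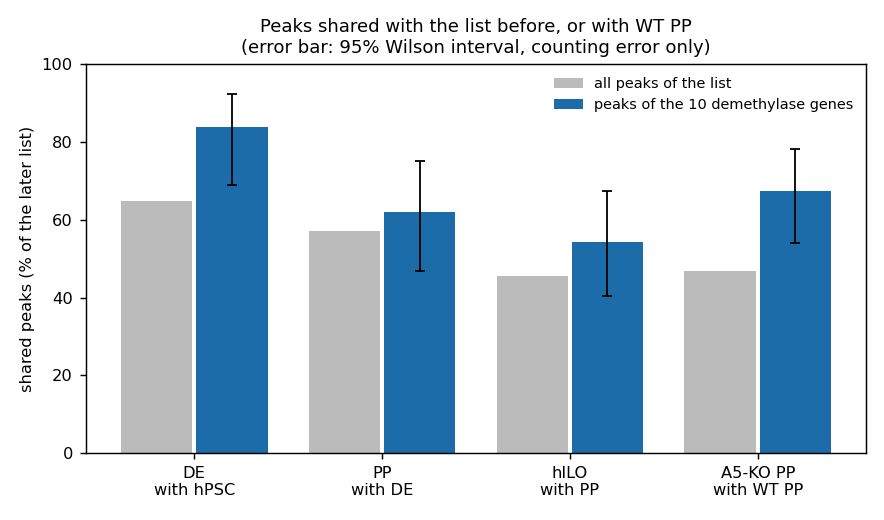
Share of peaks of each later list covered by over 50% in the list before (for A5-KO PP, in WT PP), for all peaks (grey) and for the 10 genes (blue, 95% Wilson interval). The blue bars run from 54.2% to 83.8%, and the grey bars include genes without a peak in every list.

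Among shared pairs with both peaks in register, none of the 33 stage pairs of the 10 genes reached a difference of 1. Pairs and shares use every peak that names a member, so 1 of the 33, of KDM4A from hPSC to DE (−0.31 ± 0.29), lies on ST3GAL3 exons alone. They were 19 from hPSC to DE, with a median of −0.09, 11 from DE to PP (−0.36) and 3 from PP to hILO (−0.12). Over all such pairs the medians were −0.12, −0.21 and −0.002. Few pairs of any gene reached the limit: 1.12% were higher and 1.61% lower in DE than in hPSC, 0.322% and 1.88% in PP than in DE, and 0.206% and 1.23% in hILO than in PP. From DE to PP 4 of the 11 differences were above 0 (both of KDM1A and the last exons of KDM4B and KDM5B), and the 7 in the CDS of KDM3B and KDM5B were below it. The lists were normalized separately, and this has no replicate check. In batch 2 the 10 genes had 2 such pairs, both of KDM3A and given above.

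**Figure D5:**
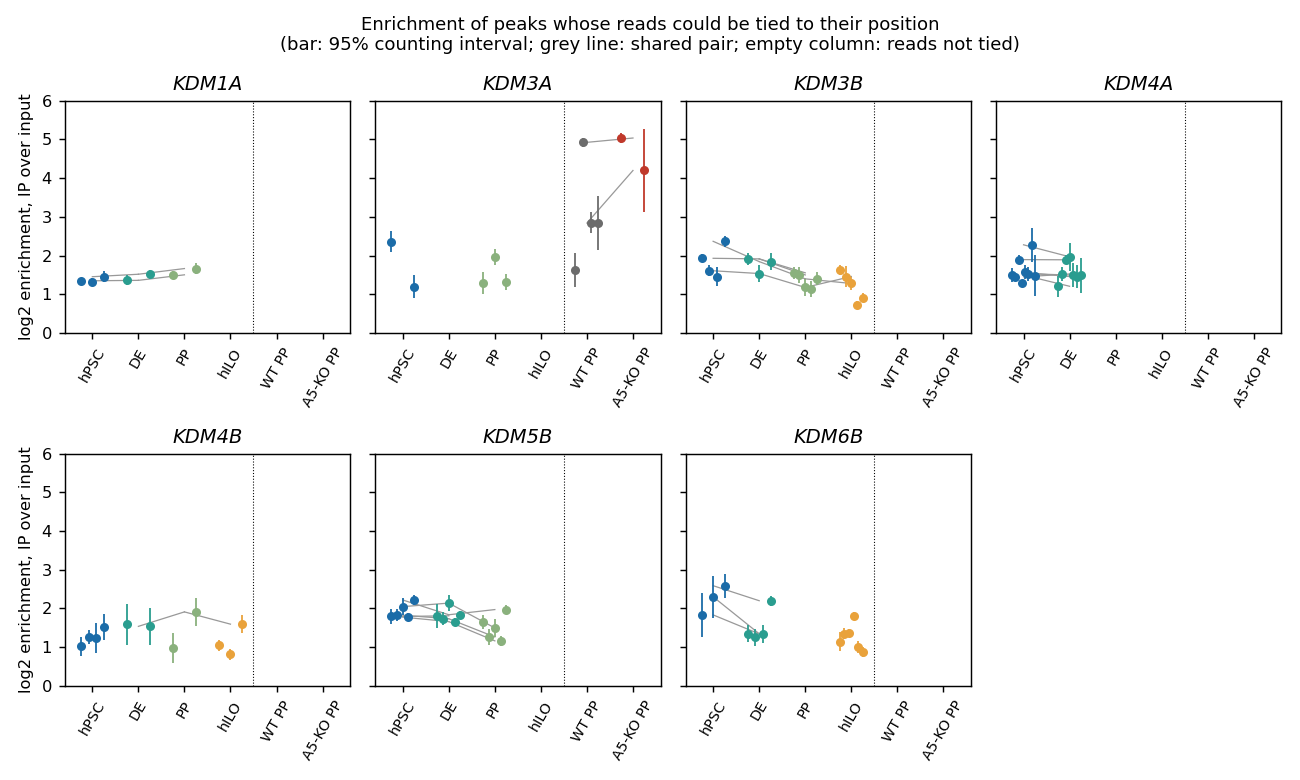
Log2 enrichment of the 89 peaks in register, for each of 7 genes by list, with bars of 95% counting intervals and grey lines between shared pairs. Lists without points had no reads in register, the dotted line divides the batches, and most stage peaks lie between 1 and 2.5.

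Related transcripts were described by the same count. Beside them, a peak in all 6 lists was found for 37.8% of protein-coding genes. Of those with an isoform of at least 3099 nt it was found for 50.8%. The sets below are small and were not matched by length, so their counts are a description only. Of 13 other genes of the demethylase families 10 had a peak in all 6 lists, with JMJD1C, a relative of KDM3A, at 7 to 11 peaks per list, and HR had 1 peak in hILO alone. Of 8 partners of KDM1A in CoREST complexes, 6 had a peak in all 6 lists. HDAC1 had none in WT PP and A5-KO PP, and HMG20B none in DE and WT PP. Of 7 partners of KDM2B in PRC1.1, 5 had a peak in all 6 lists. BCOR, its corepressor, had 8, 5, 8, 2, 7 and 8 peaks in the order of the lists, and BCORL1 had 9, 7, 6, 3, 3 and 6. USP7, a deubiquitinase, had 3, 4, 5, 6, 3 and 4, with its highest count in hILO. RING1 had 2 to 4 and RNF2 1 to 2, PCGF1 had none in hILO and WT PP, and SKP1 none in WT PP and A5-KO PP.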

How the data were processed

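The deposited files are 1 peak list for each of the 6 populations. Per the labels and methods, fastp, HISAT2 (on GRCh38) and exomePeak2 were used by the authors, who called peaks on the 2 IP and 2 input libraries together. The deposited read counts per peak are not normalized, and whether they are sums or means is not given in the sources used here. The deposited log2 values are the authors' log2 enrichment of IP over input with their GC correction, and the deposited p-values are those of exomePeak2. All members and lists were chosen with earlier results of these data known.

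Peaks were deposited as spans and were cut to GENCODE 44 exons of their genes, with positions on the longest coding isoform. For KDM1A, KDM3A, KDM4B, KDM5B and KDM6B this isoform is not the transcript marked MANE Select, so exon numbers may differ there. Exons of all transcripts were used for the cut, so lengths can include bases that the isoform lacks. The KDM1A peak of hILO across exons 8 to 10 has 1380 exonic nt, of which 138 are on the isoform. Overlaps were found with bedtools 2.31.1 and Python 3.11.15 on the same strand. Reads were called in register where, in the 150 peaks on either side in name order, the rank correlation of length and IP reads was at least 0.4 and highest at no shift, among shifts from −40 to 60 rows. This rule was chosen after seeing the data. The counting error of a log2 enrichment is from both counts plus 0.5. The register rule and the overlaps were tested on simulated data. Named were all 10 genes, each gene's widest stretch in the most lists, and batch 2 pairs past 1 whose peaks each hold 50 or more input reads, of which none was in register. Tests and leave-one-out fits need values per library and were not run.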

Additional observations from a re-analysis of the deposited data

How the results depend on the processing

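No paired analysis was possible because the peak lists used here join the replicates. For that reason no replicate was left out either. Libraries may differ within a group, and their depth is unknown. Thresholds on reads, enrichment or p act on rows that may be out of register, so the next counts describe the lists and not these genes. An IP/input of at least 3 left 25 (hPSC), 22 (DE), 20 (PP) and 22 (hILO) peaks, and 50 of 56 in WT PP and 51 of 55 in A5-KO PP. Of all peaks it left 61.7%, 59.7%, 53.1%, 46.6%, 83.6% and 84.2%. With p below 1e-10, 31, 18, 22 and 31 were left, and 22 for each list of batch 2. Of all peaks 37.8%, 38.9%, 36.9%, 68.4%, 33.5% and 26.3% were. The paper's methods give a p below 1e-05 for calling peaks. That cut left 41 (hPSC), 30 (DE), 35 (PP), 46 (hILO), 38 (WT PP) and 35 (A5-KO PP) peaks. Of all peaks it left 62.4%, 62.7%, 61.8%, 94.3%, 54.3% and 54.1%, so each list also holds peaks that do not meet it. In A5-KO PP a minimum of 50 input reads left 30 peaks (44.1% of all). Counted from the earlier list, 63.3% of the hPSC peaks of the 10 genes were shared with DE (52.5% of all hPSC peaks) and 73.8% of their PP peaks with hILO (60.5%), so the order of the stages depends on the list counted from. Reciprocal overlap gave 38.1% for PP with DE (all peaks 41.5%) and 50.9% for A5-KO PP with WT PP (30.9%). Any overlap with the CDS gave 73.0% (66.7%), and 400 nt around the stop codon 21.8% (27.1% for all peaks on isoforms of similar length or more). As deposited, pairs past 1 numbered 1 higher and 1 lower of 31 in DE, 3 and 3 of 26 in PP, 1 and 4 of 26 in hILO, and 13 and 6 of 37 in A5-KO PP. Over all pairs the shares higher and lower were 4.45% and 6.9%, 7.35% and 8.21%, 4.11% and 13.2%, and 38% and 28.9%. Restricting enrichment differences to peaks in register, chosen after seeing the data, took pairs past 1 to 0 in each direction for the stages, and to 1 higher and 0 lower for A5-KO PP. Requiring 50 input reads on both sides left 2 higher and 1 lower of 14 in A5-KO PP (22.7% and 21.4% of all such pairs), and 1 of 22 higher in PP than in DE (4.24%). The ratio of counts gave 2 of 31 lower in DE (5.0%) and 2 of 26 higher in hILO (6.5%). The cause of these changes was not tested, except that stricter rules admit fewer peaks by construction. Of 94 alternative values 31 moved. The other 63 stayed within 1.5 times the count reported, or, for shares and the motif ratio, within its 95% interval.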
